A study of Coturnix japonica with 16 samples.

Results

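The proteasome genes of Japanese quail liver are taken here as every gene whose NCBI symbol begins with PSMA, PSMB, PSMC, PSMD, PSME, PSMF or PSMG and whose level averaged at least 1 CPM, the counts of a gene scaled to library size, over the birds. Of the 20308 genes counted, 40 carried such a symbol. All 40 reached 1 CPM, and all 40 were among the 13748 genes tested. They comprise 7 alpha ring and 6 beta ring subunits of the catalytic core, 5 ATPases and 10 further subunits of the cap, 2 activators and 1 inhibitor, 7 assembly factors, and 2 genes, PSMC3IP and PSME3IP1, that share the prefix but encode interacting proteins and not subunits. The symbols PSMB6, PSMC4, PSMD8, PSME1, PSME2 and PSMB8 to PSMB10 did not occur in the name table used, and those genes were not analysed here.

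The proteasome is the barrel-shaped protease that degrades proteins marked with ubiquitin. Its core is built of stacked alpha and beta rings, with the active sites on the inner face of the beta rings, and caps on the ends of the barrel recognise, unfold and feed in the substrate. In mammals the transcription factor NFE2L1 raises many subunit genes together when proteasome activity is short, and in the liver the proteasome turns over metabolic enzymes and misfolded secretory proteins.

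The libraries came from the left liver lobe of 16 quail, Coturnix japonica, 12 weeks old and held under 8 hours of light and 16 hours of dark. Each bird was fasted for 16 hours and then gavaged once, into the crop, with 4 mL/kg of corn oil. The oil was given alone to 6 solvent birds and carried ethinylestradiol (EE2), a synthetic estrogen, at 0.5 mg/kg for 5 birds and at 5 mg/kg for 5 birds. The labels give neither the time from dosing to sampling nor the sex of the birds. Library totals ran from 15172994 to 46192717 estimated counts. All 9 hepatocyte markers examined were detected, with a summed level of 89340 to 227300 CPM per bird, and the mean correlation of a library with the others ran from 0.926, in solvent bird 1, to 0.960.

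Neither dose of EE2 was followed by a detectable change in any proteasome gene. At an adjusted p under 0.05, edgeR's quasi-likelihood test called 0 of 40 in each dose comparison. Of all genes tested it called 0.0436% at 5 mg/kg against solvent, 0% at 0.5 mg/kg against solvent and 0% between the doses. A count of 0 is therefore not particular to the proteasome genes. At an unadjusted p under 0.05 the members counted 1, 0 and 1 of 40, where 9.76%, 8.25% and 7.25% of all genes passed, and by DESeq2 the adjusted count of members was likewise 0 in each comparison. After TMM scaling the summed level of the 40 genes was 2037 ± 178 CPM (SD, n = 6) in solvent birds. It was 2026 ± 183 CPM (n = 5) at 0.5 mg/kg and 2018 ± 205 CPM (n = 5) at 5 mg/kg. Before that scaling the 40 genes held 0.1911% to 0.2242% of all counts in solvent birds. The range was 0.1739% to 0.2105% at 0.5 mg/kg and 0.1725% to 0.2588% at 5 mg/kg. In whole liver, fewer cells of a type and less RNA per cell cannot be told apart. The p-values rest on the spread among these 16 birds alone.

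The intervals bound how large a change could have been missed. The 95% interval of the fold change lay within 1.5-fold in either direction for 36 of 40 genes at 5 mg/kg against solvent, where 39.5% of all genes had intervals that narrow. At 0.5 mg/kg against solvent 37 of 40 did (all genes 40.3%), and between the doses 35 of 40 did (all genes 38.3%). These shares are not matched for level, and 35 of 40 members exceeded the median gene's 9.96 CPM. All 28 core and cap subunits among the 40 genes, called integral subunits below, were inside this bound in each of the 3 dose comparisons. Their widest limits were 0.717-fold for PSMA5 and 1.40-fold for PSMA4 at 5 mg/kg against solvent, and 0.691-fold for PSMA3 and 1.36-fold for PSMA6 at 0.5 mg/kg. The genes with wider intervals were PSMC3IP, PSMD10, PSMG2 and PSMG4 at 5 mg/kg, and PSMC3IP, PSMD10 and PSMG2 at 0.5 mg/kg. Between the doses they were PSMC3IP, PSMD10, PSME4, PSMG2 and PSMG3.

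The median log2 fold change of the 40 members was -0.03 at 5 mg/kg against solvent, with 13 above 0, beside a median of -0.002 over all genes, of which 49.8% were above 0. At 0.5 mg/kg it was -0.03, with 16 above 0, beside -0.02 over all genes, of which 46.9% were above 0. The contrasts with solvent share the solvent birds. Between the doses the median was 0.00, with 20 above 0, beside 0.02 and 53% over all genes.

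**Figure D1:**
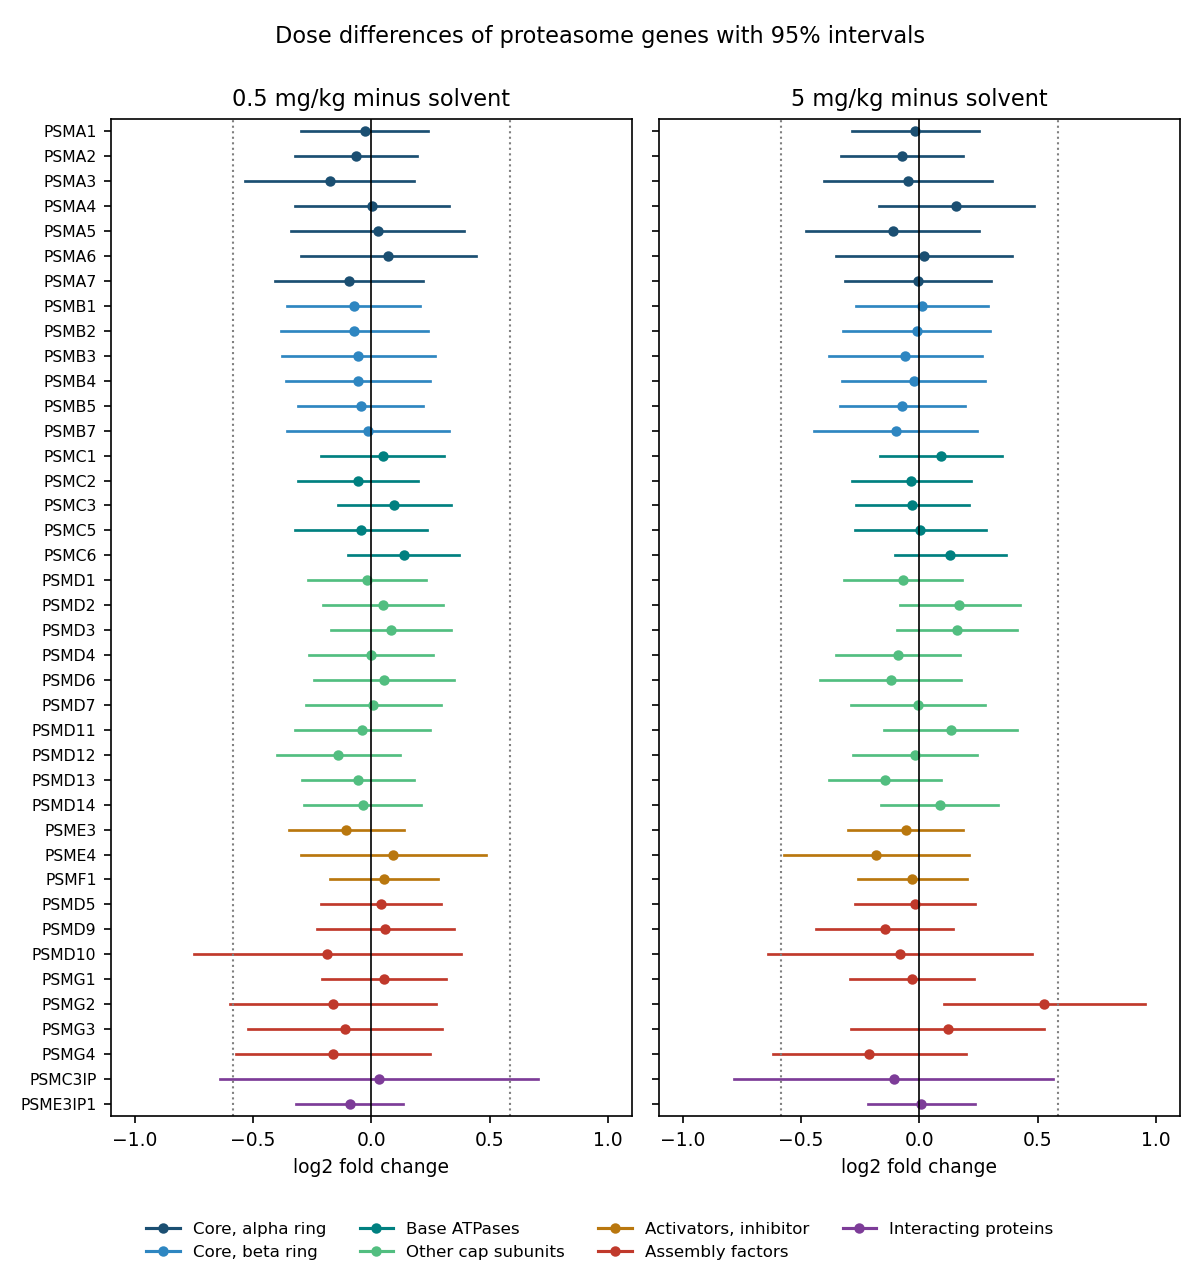
The log2 fold change of each proteasome gene (x axis) at 0.5 mg/kg (left) and 5 mg/kg (right) against solvent, with its 95% interval, coloured by role. Dotted lines mark a change of 1.5-fold, and all 28 integral subunits keep their intervals between those lines, while PSMG2 at 5 mg/kg lies to the right of 0.

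The alpha ring, whose subunits gate entry to the core, held 7 genes with log2 fold changes from -0.11 (PSMA5) to 0.16 (PSMA4) at 5 mg/kg and from -0.18 (PSMA3) to 0.07 (PSMA6) at 0.5 mg/kg, both against solvent. PSMA3 measured 42.7, 47.4 and 51.6 CPM as the lowest, median and highest of 6 solvent birds, then 50.5, 45.1, 35.4, 42.0 and 36.8 CPM in the 5 birds at 0.5 mg/kg and 36.2, 33.3, 47.8, 40.4 and 71.4 CPM in the 5 birds at 5 mg/kg. The groups overlapped, and the highest and the lowest bird both came from the 5 mg/kg group. The log2 fold change of PSMA3 at 0.5 mg/kg against solvent was -0.18 ± 0.17 (SE), the lowest p among alpha subunits in that comparison, with an adjusted p of 0.818 by edgeR's quasi-likelihood test. PSMA2 measured 47.4, 53.6 and 62.2 CPM in solvent birds, 58.2, 44.0, 42.0, 57.3 and 56.4 CPM at 0.5 mg/kg and 44.7, 46.3, 54.3, 51.3 and 60.0 CPM at 5 mg/kg, with the 3 groups overlapping.

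The beta ring carries the active sites. PSMB5, the subunit with the chymotrypsin-like site, measured 59.8, 88.0 and 106 CPM as the lowest, median and highest of the solvent birds, 88.2, 77.1, 79.7, 88.2 and 86.7 CPM at 0.5 mg/kg and 80.5, 75.2, 84.7, 88.3 and 83.7 CPM at 5 mg/kg. PSMB7, the subunit with the trypsin-like site, measured 73.9, 122 and 152 CPM in solvent birds, 120, 109, 102, 113 and 142 CPM at 0.5 mg/kg and 111, 124, 114, 85.4 and 117 CPM at 5 mg/kg. For both genes every dosed bird fell inside the range of the solvent birds, whose lowest member after TMM scaling was solvent bird 1. At 5 mg/kg against solvent PSMB5 gave a log2 fold change of -0.07 (95% interval -0.33 to 0.19), and that of PSMB7 was -0.10 (-0.45 to 0.24). The other 4 beta subunits, PSMB1 to PSMB4, which are structural and not catalytic, lay between -0.06 and 0.01 at 5 mg/kg and between -0.08 and -0.06 at 0.5 mg/kg, on the log2 scale.

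**Figure D2:**
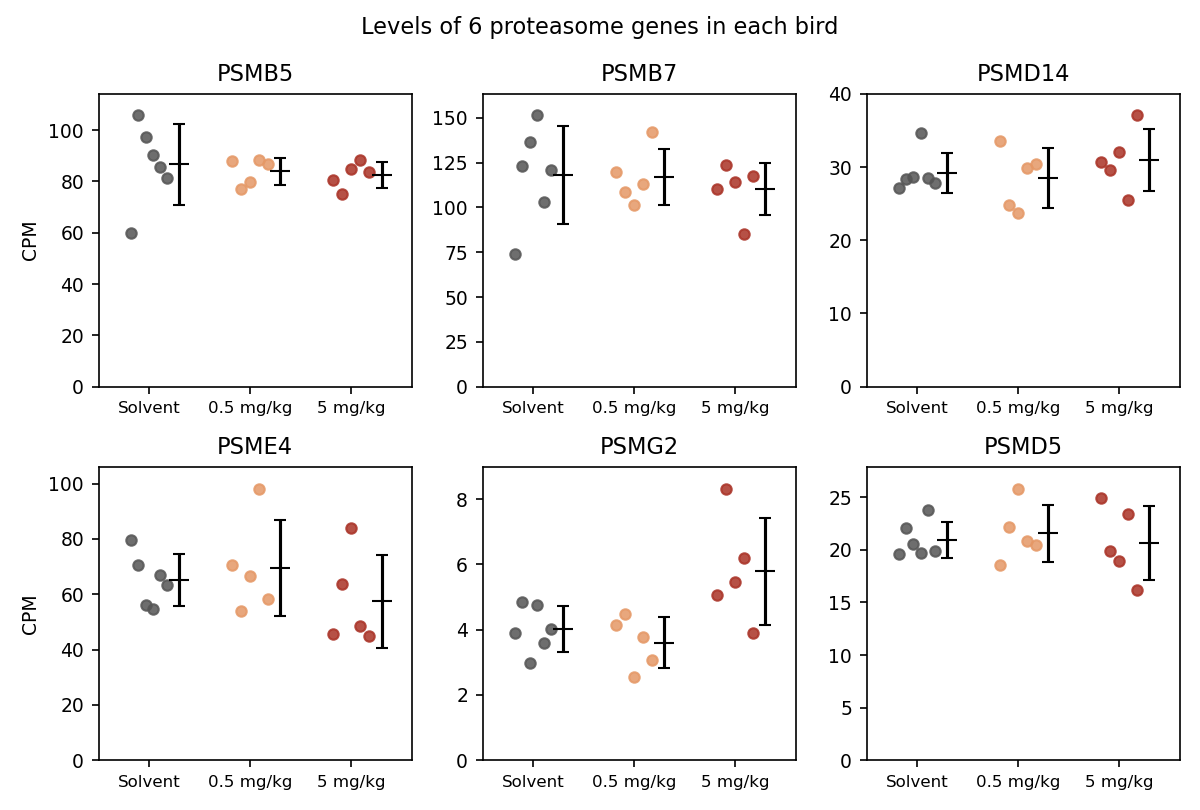
Level in CPM (y axis) of 6 proteasome genes in each bird of the solvent, 0.5 mg/kg and 5 mg/kg groups; points are birds in the order of their replicate numbers, and the bars beside them are the mean ± SD. The groups overlap for each gene, and for PSMG2 4 of the 5 birds at 5 mg/kg lie above all birds of the other groups.

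The 5 ATPases of the cap base, PSMC1, PSMC2, PSMC3, PSMC5 and PSMC6, unfold substrates and thread them into the core. Their log2 fold changes ran from -0.03 to 0.13 at 5 mg/kg against solvent and from -0.06 to 0.14 at 0.5 mg/kg. PSMC6 gave the higher end in both comparisons and had the lowest p of all 40 members at 0.5 mg/kg. It measured 52.9, 57.3 and 65.0 CPM as the lowest, median and highest solvent bird, 69.6, 62.9, 55.4, 61.3 and 68.1 CPM at 0.5 mg/kg and 61.1, 59.8, 58.9, 54.9 and 81.3 CPM at 5 mg/kg. A pair of birds at 0.5 mg/kg and 1 bird at 5 mg/kg stood above all solvent birds, and the rest overlapped. PSMC6 at 0.5 mg/kg gave a log2 fold change of 0.14 ± 0.11 (SE), with an adjusted p of 0.781 by edgeR's quasi-likelihood test.

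The remaining 10 cap subunits ran from -0.15 (PSMD13) to 0.17 (PSMD2) at 5 mg/kg and from -0.14 (PSMD12) to 0.08 (PSMD3) at 0.5 mg/kg, as log2 fold changes against solvent. PSMD2, a large base scaffold that docks shuttle factors carrying ubiquitinated cargo, measured 78.5, 91.2 and 101 CPM as the lowest, median and highest solvent bird, 103, 76.3, 90.6, 104 and 92.9 CPM at 0.5 mg/kg and 104, 109, 99.3, 81.2 and 114 CPM at 5 mg/kg. PSMD3, a lid scaffold subunit, measured 53.5, 60.2 and 68.2 CPM in solvent birds, 72.7, 58.5, 53.6, 66.9 and 70.6 CPM at 0.5 mg/kg and 63.2, 74.7, 65.5, 55.5 and 80.6 CPM at 5 mg/kg. Some birds at 5 mg/kg exceeded every solvent bird for both genes, but the groups overlapped. At 5 mg/kg against solvent PSMD2 was higher by a log2 fold change of 0.17 ± 0.12 (SE) and PSMD3 by 0.16 ± 0.12, with adjusted p of 0.661 and 0.69 by edgeR's quasi-likelihood test.

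PSMD12, a further lid scaffold subunit, measured 30.2, 36.1 and 43.6 CPM as the lowest, median and highest solvent bird, 36.3, 36.7, 27.3, 34.4 and 31.9 CPM at 0.5 mg/kg and 32.0, 44.7, 34.9, 32.7 and 36.6 CPM at 5 mg/kg. PSMD14, the deubiquitinase that strips ubiquitin chains as the substrate enters, measured 27.2, 28.5 and 34.7 CPM in solvent birds, 33.6, 24.9, 23.7, 29.9 and 30.4 CPM at 0.5 mg/kg and 30.7, 29.6, 32.1, 25.5 and 37.1 CPM at 5 mg/kg. PSMD4, which binds ubiquitin chains directly, measured 39.7, 45.5 and 53.1 CPM in solvent birds, 47.0, 39.3, 39.3, 52.9 and 50.3 CPM at 0.5 mg/kg and 37.7, 42.1, 45.7, 37.7 and 51.9 CPM at 5 mg/kg. All groups overlapped for these 3 genes. The log2 fold change of PSMD12 at 0.5 mg/kg against solvent was -0.14 (95% interval -0.40 to 0.12). At 5 mg/kg against solvent PSMD14 gave 0.09 (-0.16 to 0.33).

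The activators open the core without the ubiquitin-recognising cap. PSME3, which encodes a nuclear activator, measured 34.1, 40.6 and 45.4 CPM as the lowest, median and highest solvent bird, 40.3, 34.3, 39.7, 43.3 and 31.2 CPM at 0.5 mg/kg and 47.3, 38.3, 36.3, 35.2 and 37.8 CPM at 5 mg/kg. PSME4, a large single-chain activator, measured 54.6, 65.2 and 79.5 CPM in solvent birds, 70.4, 54.1, 66.5, 98.2 and 58.2 CPM at 0.5 mg/kg and 45.7, 63.8, 84.0, 48.7 and 45.0 CPM at 5 mg/kg. PSMF1, which inhibits the core in the test tube, measured 33.1, 34.5 and 44.2 CPM in solvent birds, 41.0, 34.2, 37.9, 41.3 and 33.8 CPM at 0.5 mg/kg and 34.7, 35.3, 29.9, 41.7 and 36.0 CPM at 5 mg/kg. PSME4 was the most uneven of the 3, with 3 of the 5 birds at 5 mg/kg below every solvent bird and 1 above all of them. Its log2 fold change between the doses was -0.27 ± 0.19 (SE), with an adjusted p of 0.811 by edgeR's quasi-likelihood test, and its 95% interval, -0.68 to 0.14, was the only one among the activators and the inhibitor to extend past 1.5-fold.

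Among the assembly factors, PSMG2 gave the lowest p of all 40 members in both comparisons that involve 5 mg/kg. PSMG2 pairs with PSMG1 as a chaperone of alpha ring assembly. It measured 2.99, 3.96 and 4.84 CPM as the lowest, median and highest solvent bird, 4.15, 4.48, 2.57, 3.76 and 3.07 CPM at 0.5 mg/kg and 5.05, 8.32, 5.47, 6.21 and 3.90 CPM at 5 mg/kg. Of the 5 birds at 5 mg/kg, 4 stood above every bird of the other groups and 1 stood among them. The log2 fold change of PSMG2 at 5 mg/kg was 0.53 ± 0.20 (SE; 95% interval 0.10 to 0.95) against solvent and 0.69 ± 0.22 (0.24 to 1.15) against 0.5 mg/kg. By edgeR's quasi-likelihood test the unadjusted p was 0.0183 and 0.00527, and the adjusted p was 0.386 and 0.55, so neither passed the threshold. At 0.5 mg/kg against solvent the log2 fold change of PSMG2 was -0.16 (-0.60 to 0.27).

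The value of PSMG2 against solvent leaned on 5 mg/kg bird 2. Without that bird the log2 fold change at 5 mg/kg against solvent was 0.36, with an unadjusted p of 0.0876 by edgeR's quasi-likelihood test. Against 0.5 mg/kg it was then 0.52, with an unadjusted p of 0.0235 and an adjusted p of 0.618 by that test. Among birds numbered 1 to 3 in their label tags the log2 fold change against solvent was 0.68, and among those numbered 4 to 6 it was 0.27. Over 28 alternatives it ran from 0.27 to 0.73 with 1 sign, and the lowest adjusted p was 0.243. PSMG2 is a low-count gene whose locus overlaps PTPN2 and CEP76 in the annotation. The overlap is one of gene spans. Whether the 3 share transcript sequence was not examined, so any mixing of reads among them is not known. PTPN2 gave log2 fold changes of 0.36 ± 0.22 (SE) against solvent and -0.06 ± 0.23 against 0.5 mg/kg at the higher dose, and CEP76 gave 0.27 ± 0.17 and 0.28 ± 0.18. PSMG1, the partner of PSMG2, gave -0.03 ± 0.12 and -0.08 ± 0.13 in the same comparisons.

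The other assembly factors showed no difference beyond the spread between birds. PSMG3 and PSMG4, which form the companion chaperone pair, gave log2 fold changes of 0.12 ± 0.19 (SE) and -0.21 ± 0.19 at 5 mg/kg against solvent. PSMD9, a chaperone of base assembly, measured 46.9, 73.8 and 86.1 CPM as the lowest, median and highest solvent bird, 70.3, 75.0, 70.2, 75.7 and 81.5 CPM at 0.5 mg/kg and 65.6, 57.5, 56.8, 74.5 and 69.0 CPM at 5 mg/kg. For PSMD9, 4 of the 5 birds at 5 mg/kg lay below every bird at 0.5 mg/kg, while the solvent birds spanned both groups. Between the doses PSMD9 gave a log2 fold change of -0.21 ± 0.14 (SE), with an adjusted p of 0.807 by edgeR's quasi-likelihood test. PSMD10, a further base chaperone, was the member with the lowest mean, 1.64 CPM, and PSMC3IP, a partner protein in meiotic recombination, averaged 1.93 CPM. Both had wide intervals.

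The family varied little from bird to bird. With dose group removed, the median SD of a member's log2 CPM was 0.208, beside 0.372 for all genes, and 38 of 40 members lay below the median gene. Of the members, 35 of 40 also exceeded the median gene's 9.96 CPM, and better expressed genes vary less. Among genes at 20 to 150 CPM the median SD was 0.268 for 3786 genes and 0.201 for the 33 members in that range. The lowest SD was 0.151 in PSME3IP1, and the highest were 0.527 in PSMC3IP and 0.383 in PSMD10.

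**Figure D3:**
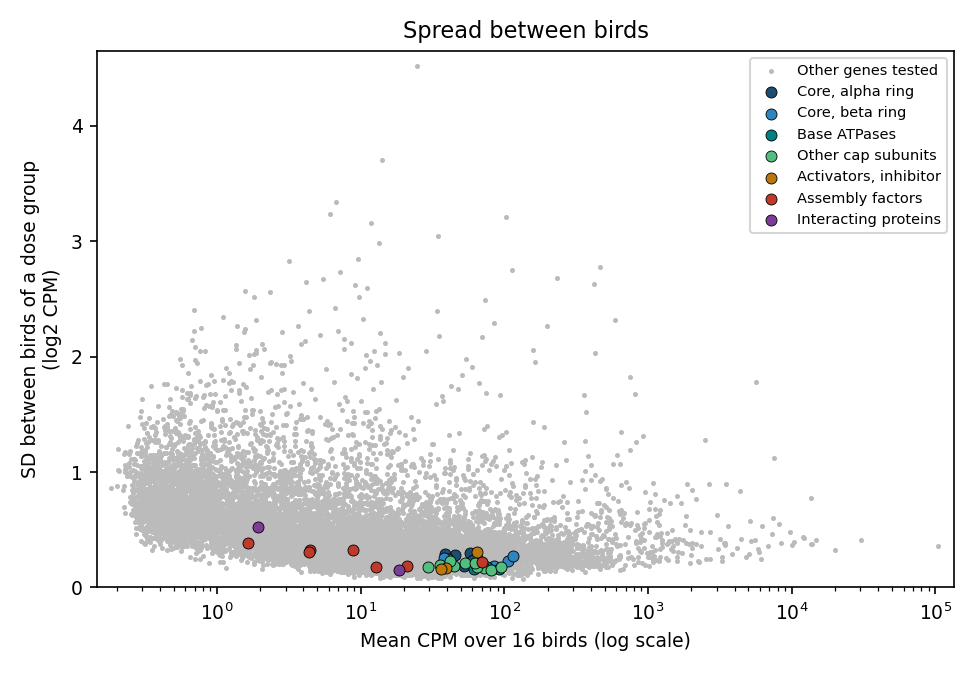
SD of log2 CPM between birds after removal of dose group (y axis) against mean CPM over 16 birds (x axis, log scale), for all genes tested in grey and the 40 proteasome genes coloured by role. Most proteasome genes lie in the lower part of the cloud, and 38 of 40 are below the median gene's 0.372.

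The integral subunits varied together across birds. With dose group removed, the median Pearson r over the 378 pairs of the 28 integral subunits was 0.589 over 16 birds, with 373 pairs above 0, and the median Spearman rho was 0.571. Over all pairs of genes tested the median r was -0.001, and genes outside the family had a median r of -0.022 with the integral subunits. These coefficients are a description and carry no p, since all genes share the same libraries and scaling. The subunits most tightly tied to the rest were PSMC1, with a median r of 0.751 to the other integral subunits, PSMD11 with 0.725 and PSMA7 with 0.719. The loosest were PSMD12 with 0.224, PSMB5 with 0.274, PSMC2 with 0.291 and PSMD1 with 0.302.

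The covariation remained when 2 birds with low levels were left out. Without solvent bird 1 and 5 mg/kg bird 4, the 2 birds farthest from the median with dose group removed, the median r among integral subunits was 0.519 over 14 birds. The highest bird, 5 mg/kg bird 5, stayed in, and its part in the covariation was not tested. Birds at 5 mg/kg gave both the highest and one of the lowest levels. Bird 5 stood 0.238 above the mean on the log2 scale, averaged over the 28 subunits, with 25 of 28 above their own mean, and bird 4 stood at -0.23, with 26 of 28 below. At 0.5 mg/kg bird 3 stood at -0.191 with 28 of 28 below. Solvent bird 1 also stood at -0.23 with 26 of 28 below, but its direction, like that of some other birds, depends on the scaling. By group the lowest, median and highest of these averages were -0.23, 0.036 and 0.175 for solvent, -0.191, 0.079 and 0.135 at 0.5 mg/kg and -0.23, 0.037 and 0.238 at 5 mg/kg.

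Scaled by library size only, an alternative chosen after the data were seen, solvent bird 1 stood at 0.153 with 24 of 28 integral subunits above their means. The median gene of that bird then stood 0.392 above its own mean, so the subunits were 0.239 lower than the median gene. Under this scaling 5 mg/kg bird 5 stood at 0.415, 5 mg/kg bird 4 at -0.263 and 0.5 mg/kg bird 3 at -0.26, in the same directions as before. Direction also changed for 0.5 mg/kg bird 5 (0.089 to -0.102), 0.5 mg/kg bird 1 (0.135 to -0.02) and 5 mg/kg bird 2 (0.037 to -0.029). Against the median gene of each bird, the subunits of those birds stood at 0.085, 0.123 and 0.041, above 0 as after TMM scaling. For 5 mg/kg bird 5 the median gene stood at 0.188, and the subunits were 0.227 above it. The median r among integral subunits was 0.62, where it was 0.11 among all genes tested.

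**Figure D4:**
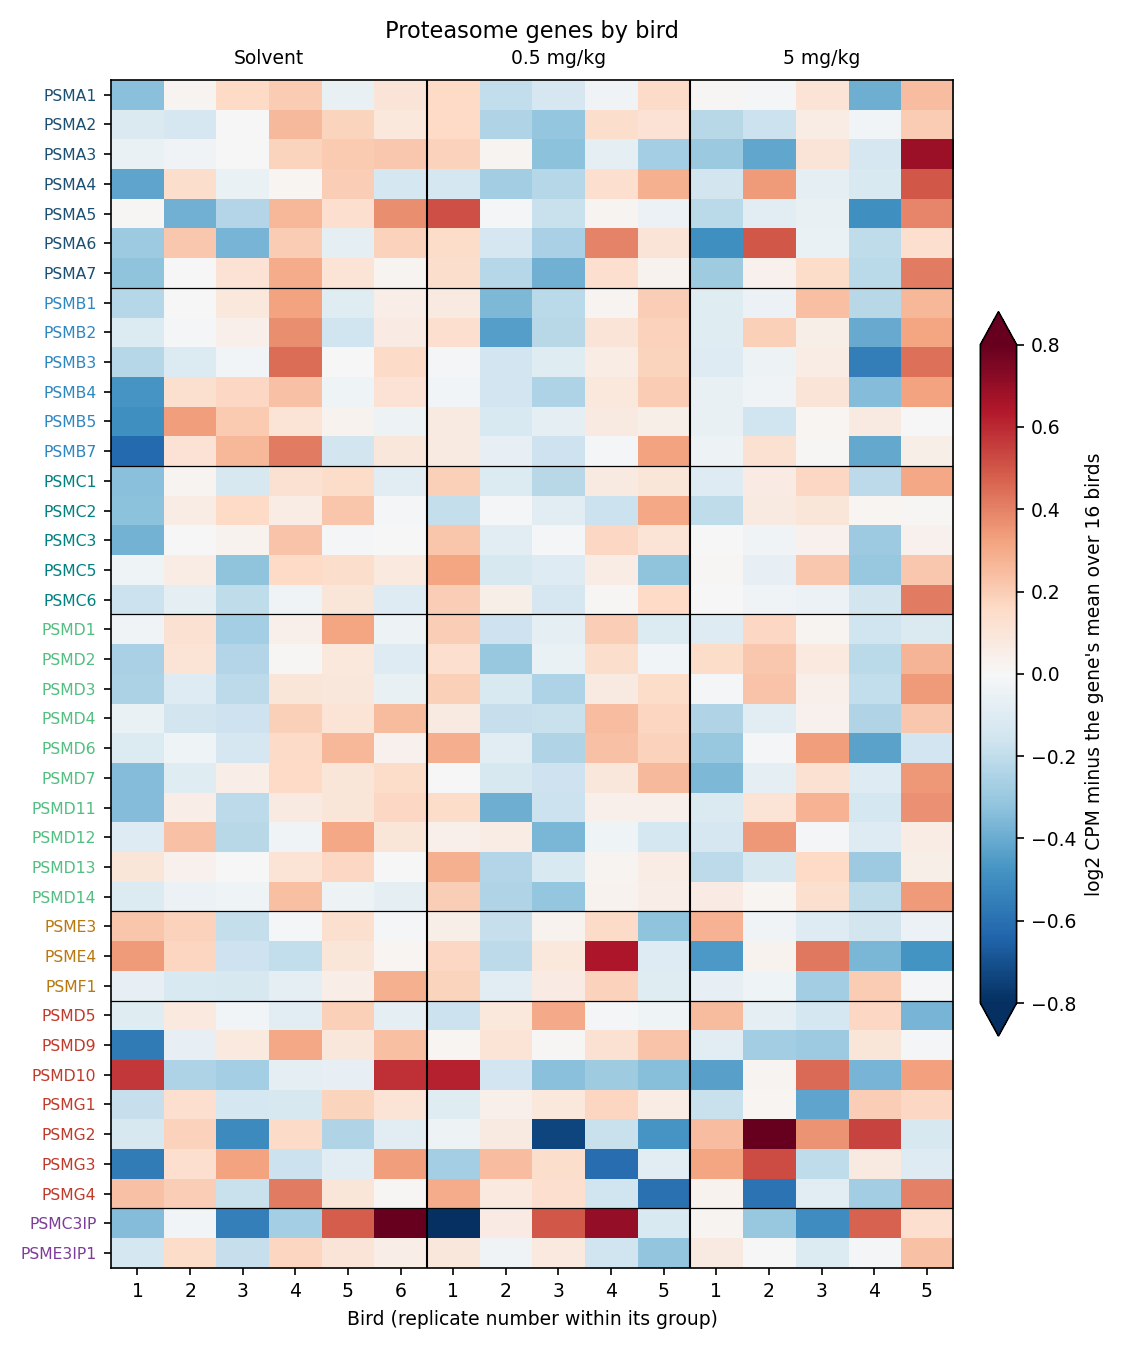
log2 CPM of each of the 40 proteasome genes minus its mean over 16 birds (colour, with values beyond 0.8 in either direction at the end colours) in each bird (columns, by group and replicate number), with gene names coloured by role. The core and cap genes share blue columns, such as 5 mg/kg bird 4, and red columns, such as 5 mg/kg bird 5, while the genes below them do not as a group. Solvent bird 1 is blue after TMM scaling and is above the mean when scaled by library size only. Some other birds, such as 0.5 mg/kg bird 5, also change direction with that scaling.

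Taken as groups, the activators with the inhibitor and the assembly factors did not follow the core and cap after TMM scaling. Their median r with the integral subunits was -0.024 for PSME3, PSME4 and PSMF1 together and 0.018 for the 7 assembly factors. It was 0.037 for the interacting proteins PSMC3IP and PSME3IP1. Single assembly factors ranged from PSMD9 at 0.305 and PSMD10 at 0.253, as high as the loosest integral subunits, to PSMG3 at -0.22 and PSMD5 at -0.55. With the class of the label number, 1 to 3 or 4 to 6, also removed, PSMD9 gave 0.01 and PSMD10 gave 0.322. PSMD9 gave 0.134 among birds numbered 1 to 3 and -0.162 among those numbered 4 to 6. PSMD5, a chaperone that in mammals binds the ATPase PSMC2 during base assembly, ran against the family. Its median r with the integral subunits was -0.55, its Spearman rho was -0.556, and r was -0.642 without the 2 birds farthest from the median. Of genes outside the family 0.839% had a median r that low or lower. With library size only, PSMD5 gave -0.35, where 4.87% of genes outside the family were that low or lower. The 3 activator and inhibitor genes then gave 0.253 and the assembly factors 0.084, where genes outside the family gave a median of 0.112.

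PSMD5 was singled out after its values were seen. It measured 19.6, 20.2 and 23.8 CPM as the lowest, median and highest solvent bird, 18.6, 22.1, 25.8, 20.8 and 20.5 CPM at 0.5 mg/kg and 25.0, 19.9, 19.0, 23.4 and 16.2 CPM at 5 mg/kg. Its lowest bird, 5 mg/kg bird 5, had the highest integral subunits, and its highest bird, bird 3 at 0.5 mg/kg, had all 28 below their means. Solvent bird 1 had the lowest PSMD5 of its group after TMM scaling, at 19.6 CPM, together with low integral subunits, and with library size only both stood above their means. By dose PSMD5 gave log2 fold changes of -0.02 ± 0.12 (SE) at 5 mg/kg and 0.04 ± 0.12 at 0.5 mg/kg against solvent.

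**Figure D5:**
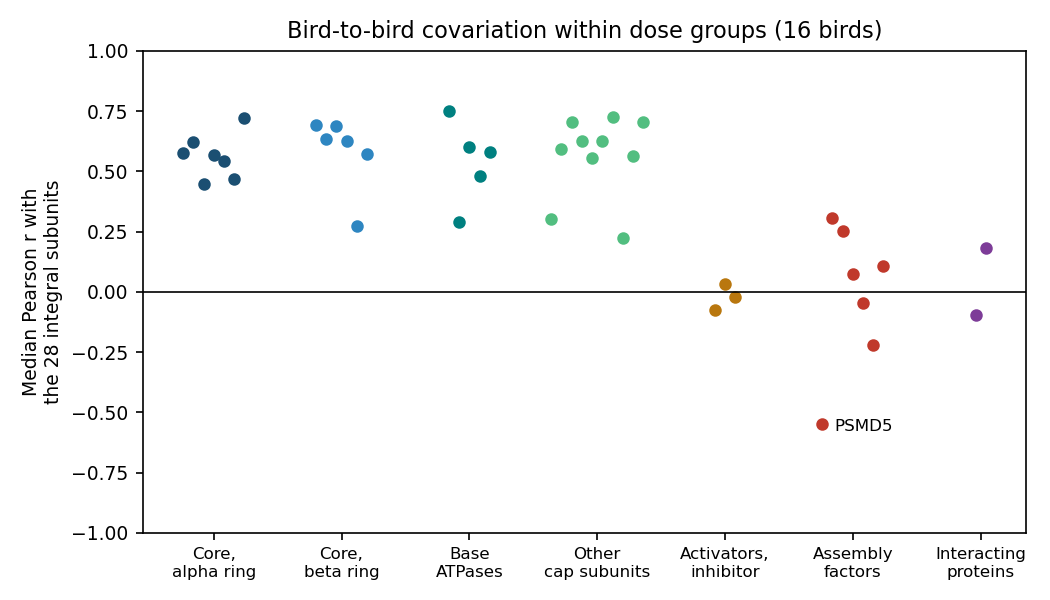
Median Pearson r of each proteasome gene with the 28 integral subunits over 16 birds after removal of dose group (y axis), by role (x axis). All core and cap subunits lie above 0.2, the activators and inhibitor lie near 0, and PSMD5 lies at -0.55.

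Marker lists of cell types differed in their r with the integral subunits after TMM scaling, and most medians were negative. Genes outside the family had a median of -0.022, with 47.1% above 0. Median r with the integral subunits was -0.312 for macrophage markers (0 of 6 above 0), -0.256 for lymphocyte markers (0 of 5), -0.329 for endothelial markers (1 of 8), -0.283 for cholangiocyte markers (1 of 3) and -0.067 for erythroid markers (0 of 3). It was 0.121 for hepatocyte markers (7 of 9) and 0.199 for stellate cell markers (5 of 6). With library size only, where the integral subunits of solvent bird 1 stood above their means, no r is given for the markers. The summed macrophage markers ran from 268 to 422 CPM in solvent birds, 166 to 373 CPM at 0.5 mg/kg and 199 to 321 CPM at 5 mg/kg, and the summed lymphocyte markers from 7.69 to 58.7, 7.98 to 25.2 and 7.28 to 15.1 CPM. Endothelial markers summed to 99.4 to 131 CPM, 84.0 to 127 CPM and 57.3 to 125 CPM in the same order. No marker of these lists was at 0 in all birds. In solvent bird 1 the interferon list stood 3.27 above its mean on the log2 scale, and the summed lymphocyte markers were the highest of any bird. The part of these in the covariation was not tested.

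The labels' bird tags carry numbers, and earlier results of these data showed that birds numbered 1 to 3 and 4 to 6 separate on genes of the Z chromosome. None of the 39 members placed on a chromosome lies on Z, and PSMB5 has no chromosome assigned. The labels do not say what the numbers stand for. With dose in the model, 0 of 40 members passed at an adjusted p under 0.05 for 4 to 6 against 1 to 3, where 1.24% of all genes did, and 5 of 40 passed at an unadjusted p under 0.05, where 9.57% did. All 5 were higher in birds numbered 4 to 6, where 4.38% of all genes passed in that direction. The difference was above 0 for all 28 integral subunits and for 33 of 40 members, where 48.2% of all genes were above 0, and the median was 0.12 for members and -0.01 for all genes. Since these subunits vary together, they are not 28 separate observations. With library size only 26 of 28 were above 0. Without 5 mg/kg bird 5 the median of members was 0.07, with 26 of 28 above 0. Without the 3 libraries least correlated with the rest it was 0.04, with 20 of 28 above 0.

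Marker lists of cell types were also compared between the number classes. Some listed genes had no entry in the name table used. Tested were 3 of 7 erythroid, 3 of 5 cholangiocyte, 5 of 8 lymphocyte, 6 of 9 macrophage and 8 of 12 interferon genes. All 3 erythroid markers were higher in birds numbered 4 to 6 at an unadjusted p under 0.05 by edgeR. That share was 4.38% over all genes tested. The median log2 difference of the 3 markers was 0.82. Lower medians there were found for macrophage markers at -0.14 (0 of 6 above 0), stellate cell markers at -0.16 (0 of 6), endothelial markers at -0.18 (1 of 8), lymphocyte markers at -0.39 (1 of 5) and cholangiocyte markers at -0.43 (0 of 3). Hepatocyte markers had a median of -0.05 (4 of 9 above 0), and the interferon list one of -0.76 (0 of 8). By edgeR's adjusted p none of these genes passed, and their part in the difference of the subunits was not tested. Solvent bird 1 carries the number 1 and stood highest of all birds on several of these lists. On the log2 scale it was 3.27 above the mean for interferon, 2.10 for lymphocyte, 1.23 for cholangiocyte and 0.895 for macrophage genes. The class differences of the lists without that bird are not given here.

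The lowest p in that comparison belonged to PSMD4, with a log2 difference of 0.24 ± 0.09 (SE), PSMD9 with 0.27 ± 0.10 and PSMA2 with 0.24 ± 0.09. Their adjusted p by edgeR's quasi-likelihood test was 0.313, 0.33 and 0.332. PSMD7, the structural partner of PSMD14, gave 0.25 ± 0.10 and PSMC3IP gave 0.55 ± 0.24, with adjusted p of 0.368 and 0.443. Among the birds numbered 1 to 3 the median dose difference of members against solvent was 0.07 at 5 mg/kg and 0.03 at 0.5 mg/kg, and among those numbered 4 to 6 it was -0.09 and -0.03, on the log2 scale. The covariation was present in both classes, with a median r among integral subunits of 0.532 over 9 birds and 0.655 over 7 birds, and PSMD5 gave -0.448 and -0.646. In a test of whether the dose effect differed between the number classes, edgeR called 0 of 40 members at either dose, and it called 0% of all genes tested. At an unadjusted p under 0.05 the count was 1 member at 0.5 mg/kg, where 3.02% of all genes passed, and 0 members at 5 mg/kg, where 4.15% did.

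Genes that work with or beside the proteasome gave no call by dose either. Across 7 lists, 0 genes passed at an adjusted p under 0.05 in any dose comparison by edgeR's quasi-likelihood test. Of all genes tested 0.0436% passed at 5 mg/kg against solvent and 0% in each other dose comparison, so 0 calls are not particular to these lists. Between birds numbered 4 to 6 and 1 to 3, 4 of the 17 proteasome-bound factors passed, all lower in 4 to 6, led by TXNL1 at -0.56. Of the 9 COP9 subunits 1 passed, COPS3, higher at 0.34. In that comparison 1.24% of all genes passed, and the number classes separate on genes of the Z chromosome. The chromosomes of the list genes that passed are not given here. The 17 proteasome-bound factors carry no PSM symbol, and ADRM1 and SEM1 among them are also cap subunits. Their median log2 fold change was 0.02 at 5 mg/kg against solvent, beside -0.002 over all genes. At an unadjusted p under 0.05 by that test 0 of them passed, where 9.76% of all genes did. Their lowest p was for PAAF1, a base assembly chaperone, at -0.25 ± 0.14 (SE). The 12 transcriptional regulators had a median of 0.02, and STAT3, a cytokine-activated transcription factor, had the lowest p at 0.80 ± 0.18, with an adjusted p of 0.126. The 26 ubiquitin, activating and conjugating genes had a median of 0.01, led by the conjugating enzyme UBE2O at -0.40 ± 0.14.

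The 18 genes of the VCP segregase and of endoplasmic reticulum associated degradation had a median log2 fold change of -0.03 at 5 mg/kg, and HERPUD1, an adaptor of that pathway, stood at -0.99 ± 0.30 (SE) with an adjusted p of 0.278 by edgeR's quasi-likelihood test. The 9 subunits of the COP9 signalosome, which is related in make-up to the proteasome lid, had a median of 0.04. The 14 heat shock chaperones had a median of -0.39 with 3 above 0, beside -0.002 and 49.8% over all genes. At an unadjusted p under 0.05 by that test 3 of them passed, where 9.76% of all genes did. They were led by the co-chaperone BAG3 at -1.48 ± 0.38 with an adjusted p of 0.181. The 8 interferon and antigen presentation genes had a median of -0.83, a value set by solvent bird 1. Their summed level was 3054 CPM in that bird, 151 to 180.5 CPM in the other 5 solvent birds, 159 to 267 CPM at 0.5 mg/kg and 154 to 216 CPM at 5 mg/kg. Without solvent bird 1, an alternative chosen after the data were seen, their median was 0.04 with 5 of 8 above 0. DHX58, an RNA sensor regulator, stood at -1.34 ± 0.33 with an adjusted p of 0.152 by edgeR, and at -0.95 ± 0.24 with an adjusted p of 0.177 without that bird.

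At 0.5 mg/kg against solvent the medians of these lists ran from -0.92 for the interferon genes and -0.25 for the chaperones to 0.10 for the VCP list. Without solvent bird 1 they were 0.13, -0.16 and 0.09, so the negative value of the interferon list rested on that bird. The genes of lowest p there were DHX58 at -1.0 ± 0.33 (SE), or -0.62 ± 0.24 without solvent bird 1, BAG3 at -0.88 ± 0.38, BACH1, a repressor that competes with NFE2L factors, at 0.44 ± 0.17, GPS1 of the COP9 signalosome at -0.28 ± 0.11 and the degradation lectin OS9 at 0.25 ± 0.11. Their adjusted p by edgeR's quasi-likelihood test ran from 0.484 for DHX58 to 0.597 for OS9. In the bird-to-bird description with dose removed, COP9 subunits had a median r of 0.317 with the integral subunits and 8 of 9 were above 0. The heat shock list had a median of 0.261 with 9 of 14 above 0, from HSPA2 at -0.141 to the HSP90 co-chaperone AHSA1 at 0.635. Proteasome-bound factors had 0.151 (10 of 17 above 0), ubiquitin genes 0.10 (17 of 26) and the VCP list 0.069 (11 of 18). Transcriptional regulators had -0.031 (5 of 12) and interferon genes -0.29 (1 of 8), beside -0.022 for genes outside the family.

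Most members were counted from 1 transcript, and 11 of 40 from more. PSMG2 drew 94.1% of its counts from its main transcript in solvent birds, 94.8% at 0.5 mg/kg and 99.0% at 5 mg/kg. On the assembly Coturnix japonica 2.1, 39 of the 40 genes were spread over 19 chromosomes, with 7 on chromosome 5 and 6 on chromosome 27, and PSMB5 has no chromosome assigned. In that annotation the spans of 9 of 40, from gene start to gene end, overlap another gene. PSMD1 with HTR2B, PSMD10 with VSIG1 and PSMG4 with SLC22A23 are among them. The labels do not state whether the libraries kept strand. Whether such genes share transcript sequence was not examined, so any mixing of reads between them is not known.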

How the data were processed

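The authors deposited kallisto's estimated counts, 1 value for each transcript and bird, per the submitters' processing notes. Not given in the sources used here are kallisto's version, the transcriptome, the genome build and whether strand was kept. The 47418 transcript values were summed per gene to 20308 genes and rounded, which changed a count by at most 0.5. Names and chromosomes came from the NCBI table of the assembly Coturnix japonica 2.1, which matched 18900 genes. The members and lists were chosen with earlier results of these data known.

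Tests used R 4.3.3 with limma 3.58.1 and edgeR 4.0.16, with filterByExpr (minimum count 10, minimum total 15), TMM scaling and a quasi-likelihood fit of 3 groups to all 16 libraries, with 13 residual degrees of freedom. P-values were adjusted by Benjamini-Hochberg over 13748 genes at a threshold of 0.05. The SE is the log2 fold change divided by the root of F, and intervals are 95% t intervals. Levels are CPM after TMM scaling unless stated, with a prior count of 2 for log2 values. Transcript lengths were not used, so where the CPM of different genes are set side by side, they are not corrected for length. For some members the text gives the value of each dosed bird and the lowest, median and highest of the solvent birds. These are the 3 members of lowest p in each comparison, PSMB5, PSMB7, PSMD14, PSME3, PSME4 and PSMF1, and PSMD5, added after its values were seen. Alternatives covered RLE scaling, library size only, other filters, DESeq2 1.42.0, limma-voom, only the groups compared, number class, a replicate block, each bird left out and, chosen after seeing the data, the 3 least correlated libraries left out. The procedure was tested on simulated data. Some results are not reported here.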

Additional observations from a re-analysis of the deposited data

Results flagged for a closer look

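Within a dose group, 1 bird stood apart from the others (Dixon's test at the 95% level) in 6 of 123 groups examined, and chance gives about 1 in 20. At 0.5 mg/kg, bird 1 had 54.1 CPM of PSMA5, where the others had 33.5 to 38.5 CPM, and 2.43 CPM of PSMD10, where the others had 1.25 to 1.43 CPM. At 5 mg/kg, bird 4 had 74.2 CPM of the ATPase PSMC3 (others 89.0 to 93.0 CPM), bird 5 had 81.3 CPM of the ATPase PSMC6 (others 54.9 to 61.1 CPM) and bird 1 had 47.3 CPM of the activator PSME3 (others 35.2 to 38.3 CPM). Solvent bird 4 had 34.7 CPM of the deubiquitinase PSMD14, where the others had 27.1 to 28.7 CPM.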

How the results depend on the processing

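The count of members at an adjusted p under 0.05 was 0 in each dose comparison under all 28 alternatives, and 0 for the label numbers under all 23. The median log2 fold change of members ranged from -0.09 to 0.07 at 5 mg/kg against solvent, from -0.20 to 0.03 at 0.5 mg/kg and from -0.04 to 0.13 between the doses. With library size only the members' median was -0.20 at 0.5 mg/kg against solvent, beside -0.20 for all genes, and 0.13 between the doses, beside 0.13 for all genes. Over all genes the number called at 5 mg/kg against solvent ranged from 0 to 160, the latter with DESeq2. Replicate numbers showed no clear pairing of birds across groups. Same-numbered birds correlated at -0.084 to 0.203 (median 0.024, 15 pairs) and others at -0.191 to 0.198 (median 0.002, 70 pairs). Birds 4 and 5 at 5 mg/kg carry the tag numbers 5 and 6, so pairing by tag number was not tested. With the replicate block 0 members were called, and the medians were -0.01, -0.02 and 0.00. Low counts limit PSMG2, PSMG4, PSMD10 and PSMC3IP.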
